A study of Mus musculus with 9 samples.

Results

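Of 54307 genes in the deposited expression table, 136 were at a raised level in C2C12 myoblasts in high glucose and at a similar mean level in high glucose with liraglutide. C2C12 is an established line of mouse muscle precursors, which form myotubes on differentiation. The HL group received 25 mmol/L glucose with 200 nmol/L liraglutide, the H group received 25 mmol/L glucose alone, and the NC group was the control, whose glucose concentration is not given in the sources used here. Each group had 3 libraries of enriched mRNA, taken after 48 h. The unit is FPKM, which scales fragments to transcript length and to the mapped reads of the library, and differences are given on the scale log2(FPKM + 0.1), which understates the change of genes near 0. The 136 genes were chosen by their measured values in these libraries: they are those with a mean of at least 2 FPKM in H, a mean difference of H from NC over 1, a mean difference of HL from H under 0.3 in either direction, and every H and every HL value above every NC value. This choice used all 9 libraries and all 3 comparisons, so the levels of the members are given as a description, and counts of members called by a fit are not tests of them. The methods state in general terms that experiments were independently repeated and refer to biological repeats. They do not say whether the replicate libraries of a group derive from independent cultures. The spread of these libraries may therefore be biological or technical.

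Liraglutide mimics the incretin hormone GLP-1, whose receptor couples to adenylate cyclase and raises cAMP. High glucose adds both sugar and osmotic load to a culture, and myoblasts are known to respond to stress with immediate early transcription factors, with p53 and its cell cycle inhibitor p21, with ubiquitin ligases of muscle atrophy and with lysosomal genes. Some members belong to these classes and others to replication-dependent histones, whose mRNAs normally end in a stem-loop in place of a poly(A) tail and are made mainly in S phase. Most members lie outside them, among signaling, lipid, metabolic, membrane, matrix and non-coding genes. In such bulk samples, fewer cells of a type and less RNA per cell cannot be told apart.

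Promoter sequences from RefSeq (build GRCm38.p6) were matched for 97 of the 136 members, with 123 promoters of 300 bases in all, since some genes have several start sites. The octamer ATTTGCAT, the site of OCT1 in histone H2B promoters, was searched on both strands after the values had been seen. It stood in 4 of 11 promoters of the histone members (36.4%), in 6 of all 123 member promoters (4.88%) and in 570 of 32851 promoters in the reference (1.74%). The TATA box, searched as TATAAA or TATAAG on both strands, stood in 8 of 11 histone member promoters (72.7%), against 19.5% of member promoters and 18.8% of all promoters. Of the 11 histone members 5 are H2B genes, and the promoters of other histone genes were not counted apart. The shares may thus belong to the gene family and are not read as a trait of the members. The 4 histone promoters with the octamer are shown because they hold these letters upstream of the start. Each line holds the 150 bases before the start, with the octamer and any TATA box in capitals. The windows are chr13:23585971-23586120 on the minus strand for Hist1h2be, chr13:23571250-23571399 on the plus strand for Hist1h2bg, chr3:96269550-96269699 on the plus strand for Hist2h2bb and chr11:58954535-58954684 on the plus strand for Hist3h2a.
Hist1h2be: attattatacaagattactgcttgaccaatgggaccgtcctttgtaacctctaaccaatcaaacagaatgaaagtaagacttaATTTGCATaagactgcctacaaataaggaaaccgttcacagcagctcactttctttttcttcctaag
Hist1h2bg: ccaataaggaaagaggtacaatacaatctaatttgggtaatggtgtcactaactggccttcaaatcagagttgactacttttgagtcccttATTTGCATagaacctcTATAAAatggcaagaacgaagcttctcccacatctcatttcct
Hist2h2bb: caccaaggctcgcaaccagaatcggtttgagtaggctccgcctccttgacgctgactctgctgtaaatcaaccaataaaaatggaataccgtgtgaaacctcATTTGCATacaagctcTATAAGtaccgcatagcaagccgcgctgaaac
Hist3h2a: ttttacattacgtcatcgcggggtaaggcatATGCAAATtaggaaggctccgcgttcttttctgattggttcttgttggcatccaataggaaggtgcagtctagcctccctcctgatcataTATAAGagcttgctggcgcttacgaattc
In these windows the octamer started at position -67 in Hist1h2be, -59 in Hist1h2bg, -48 in Hist2h2bb and -119 in Hist3h2a, counted back from the start site.

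The cAMP response element TGACGTCA, the site of CREB family factors, was present in 3 of 123 member promoters (2.44%), against 1.79% of all promoters. Its core TGACG, which lies within the full element and was searched on both strands, was present in 34 (27.6%), against 20.8%. The 3 promoters with the full element and that of Fos, the classic target of these factors, are shown because the GLP-1 receptor raises cAMP. The receptor gene Glp1r averaged 0.14 FPKM in HL, 0.56 in H and 0.09 in NC, too low to be tested. Whether cAMP rose in these cells was not tested. The members were chosen for similar mean levels in HL and H, so nothing is read from these matches about liraglutide. The core is in capitals. The windows are chr13:110394894-110395043 on the plus strand for Plk2, chr11:90390918-90391067 on the minus strand for Hlf, chr11:101665391-101665540 on the plus strand for Arl4d and chr12:85473740-85473889 on the plus strand for Fos.
Plk2: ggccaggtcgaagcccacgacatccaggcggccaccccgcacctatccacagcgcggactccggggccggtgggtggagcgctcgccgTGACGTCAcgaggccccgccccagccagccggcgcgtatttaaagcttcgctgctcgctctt
Hlf: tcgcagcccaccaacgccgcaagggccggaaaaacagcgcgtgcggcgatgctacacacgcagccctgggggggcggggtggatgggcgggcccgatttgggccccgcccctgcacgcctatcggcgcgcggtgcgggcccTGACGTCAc
Arl4d: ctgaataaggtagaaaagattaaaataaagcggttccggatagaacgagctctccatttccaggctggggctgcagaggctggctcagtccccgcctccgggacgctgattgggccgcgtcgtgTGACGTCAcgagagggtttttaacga
Fos: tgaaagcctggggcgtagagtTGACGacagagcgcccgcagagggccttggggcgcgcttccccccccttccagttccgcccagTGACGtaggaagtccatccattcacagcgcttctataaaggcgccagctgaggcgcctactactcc
The full element started at position -62 in Plk2, -9 in Hlf and -26 in Arl4d, and the core at -129 and -66 in Fos.

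The E-box CACGTG, which reads the same on both strands and is bound by clock, MYC and TFEB family factors, was present in 10 of 123 member promoters (8.13%), against 7.15% of all promoters. It is shown for 2 lysosomal proteases, a zinc finger factor and a deubiquitinase described below, with the E-box in capitals. The windows are chr7:142387828-142387977 on the minus strand for Ctsd, chr19:4855015-4855164 on the plus strand for Ctsf, chr13:5861339-5861488 on the plus strand for Klf6 and chr2:19657581-19657730 on the plus strand for Otud1.
Ctsd: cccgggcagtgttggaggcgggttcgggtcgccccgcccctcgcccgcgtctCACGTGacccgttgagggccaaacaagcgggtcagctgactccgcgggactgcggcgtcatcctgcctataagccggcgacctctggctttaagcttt
Ctsf: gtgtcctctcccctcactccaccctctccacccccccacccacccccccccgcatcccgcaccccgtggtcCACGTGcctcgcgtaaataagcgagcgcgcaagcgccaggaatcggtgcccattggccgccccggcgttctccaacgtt
Klf6: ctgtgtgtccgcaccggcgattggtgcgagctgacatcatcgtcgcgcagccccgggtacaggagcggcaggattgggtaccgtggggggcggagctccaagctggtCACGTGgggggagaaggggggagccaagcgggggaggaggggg
Otud1: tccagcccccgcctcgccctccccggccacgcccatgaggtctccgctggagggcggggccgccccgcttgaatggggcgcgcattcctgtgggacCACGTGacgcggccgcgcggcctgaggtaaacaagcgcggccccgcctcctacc
The E-box started at position -98 in Ctsd, -79 in Ctsf, -43 in Klf6 and -54 in Otud1.

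The other motifs were counted in the same windows. The AP-1 site TGACTCA was in 4.88% of member promoters and 5.2% of all, the p53 site element in 7.32% and 8.36%, and the FOXO site GTAAACA in 4.07% and 3.65%. The shares were 44.7% and 37.4% for the CCAAT box, 3.25% and 1.63% for the CArG box of serum response factor, and 3.25% and 2.25% for the lysosomal CLEAR element GTCACGTG, which contains the E-box above. The antioxidant response element TGACNNNGC was in 16.3% of member promoters and 12.4% of all. The heat shock element GAANNTTC was in 6.5% and 7.86%, the MyoD-type E-box CANNTG, which also takes in CACGTG, in 70.7% and 72.3%, and the TonE of the osmotic stress factor NFAT5 in 1.63% and 4.96%. The E2F site TTTGGCGC or TTTCGCGC was in 0.813% of both, and the CARE TGATGCAA of the ATF4 response in 0 of 123 and 0.895%. A match is a run of letters in a window of 300 bases and no evidence of binding.

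Compared with NC, 1079 genes with at least 2 FPKM in H were higher in H by over 1 with no overlap of the H and NC values. In 539 of these (49.95%) HL was lower than H by over 1, and in a further 335 (31.05%) by 0.3 to 1. The 136 members made up 12.6%, and HL was higher than H by 0.3 or more in 55 and 10 genes, the 10 by over 1. The median difference of HL from H over all 1079 genes was -0.998. All 136 members were called higher in H than in NC by limma (adjusted p under 0.05 and a log2 fold change over 1), against 10.3% of the 13674 genes tested, and 113 were called higher in HL than in NC, against 6.3%. Over all tested genes, all 3 H values lay above all 3 NC values in 29.7%, all 3 HL values above all 3 NC values in 29.5% and both in 17.4%, and the HL mean lay within 0.3 of the H mean in 49.4%. These counts were set by the choice of members. The counts given below for gene lists include their members, so they are set in part by the same choice, and nothing is read from them about the members. Of all tested genes, 5.75% were called lower in H than in NC and 2.41% lower in HL than in NC. In HL against H, 3.55% were called higher and 5.83% lower.

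**Figure D1:**
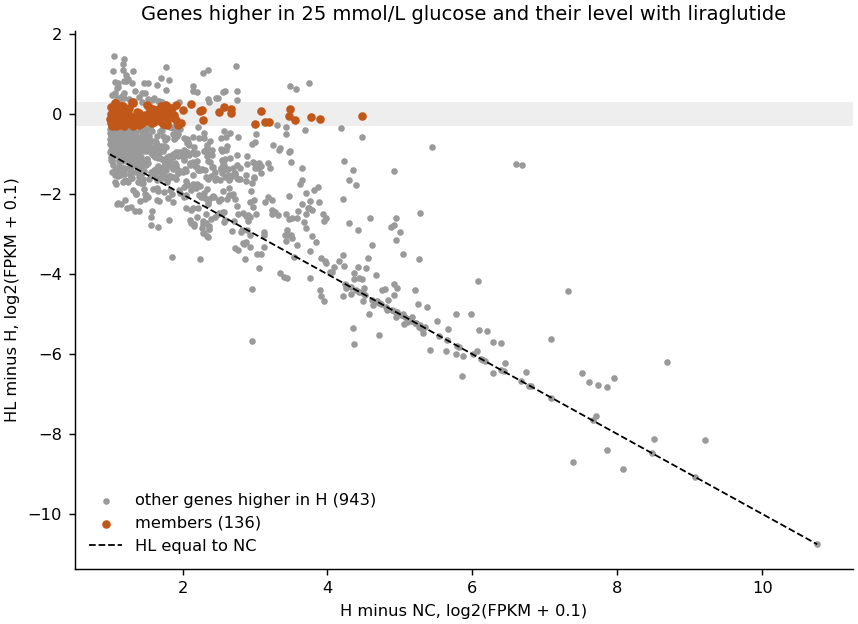
Difference of HL from H against the difference of H from NC, both on the log2(FPKM + 0.1) scale, for the 1079 genes higher in H. Orange points are the 136 members inside the grey band of 0.3 around no difference between HL and H, grey points are the other 943 genes, and on the dashed line HL equals NC.

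Among the members, the difference of H from NC ran from 1.01 to 4.47 with a median of 1.44, and that of HL from NC from 0.73 to 4.42 with a median of 1.38. The share of the log2 difference of H from NC that was present in HL had a median of 95.5% and ran from 71.5% to 127%. HL was above H in 52 members and below it in 84, and within 0.1 of it in 46. The median level was 7.23 FPKM in HL, 7.51 in H and 2.75 in NC, with 10 members over 100 FPKM in H and 54 under 5. Together the members took 0.588% to 0.605% of the FPKM total in HL, 0.65% to 0.677% in H and 0.2002% to 0.2187% in NC. The HL and H values overlapped in 118 members and were apart in 18, 5 with HL above and 13 with HL below. A mean difference under 0.3 does not show equal levels. Its standard error in the fit was 1.15 in Hist1h4k and 0.58 in Hist2h2bb, and 0.05 in Plk2 and Cdkn1a. The closeness of HL and H depended on single H libraries for part of the members: 120 of the 136 stayed within 0.3 without H replicate 1, 109 without H replicate 2 and 111 without H replicate 3. Over all tested genes the HL and H values were apart in 55.3%, with HL above in 30.4%.

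Libraries summed to 698627 to 731929 FPKM in HL, 649733 to 683362 in H and 757000 to 765681 in NC, and the values carry no read counts. From the steps between low values, the mean NC level corresponded to roughly 0.84 reads for Hist2h2bb, 5.03 for Hist1h2br and 8.001 for Hist1h4k, and to under 10 reads for Tmem147os and Fabp3. The H libraries differed most from each other: the median SD of log2 values over the members was 0.110 in HL, 0.242 in H and 0.168 in NC, and over all tested genes it was 0.087 in HL, 0.171 in H and 0.072 in NC. The SD was smaller in HL than in H for 102 of the 136 members. H replicate 3 was the lowest H library in 42.65% of members, against 24.46% of tested genes. The share of transcripts from the mitochondrial genome was 9.19% to 11.45% in HL, 7.24% to 9.47% in H and 6.48% to 7.28% in NC, and their part in the members' levels was not tested. The myoblast markers, 9 of 10 of them tested, summed to 719 to 748 FPKM in HL, 344 to 510 in H and 501 to 515 in NC, and Pax7 was under 1 FPKM on average in all 3 groups. Des alone averaged 368.5 FPKM in HL, 191 in H and 253 in NC. The markers did not share a single pattern. In H against NC, 0 were called higher and 1, Myod1, lower (mean 8.16 FPKM in H, 18.2 in NC). In HL against H, 2 were called higher and 0 lower. Mean FPKM in HL, H and NC was 20.9, 11.3 and 7.32 for Myf5, and 30.3, 34.4 and 48.5 for Vcam1.

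**Figure D2:**
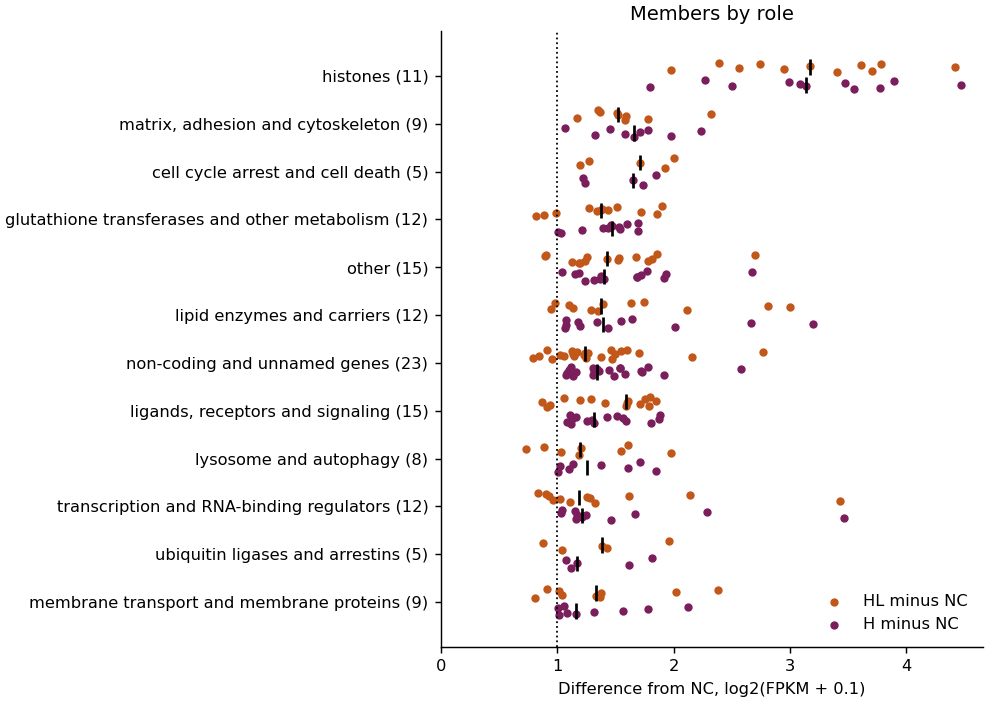
Difference from NC on the log2(FPKM + 0.1) scale for each member, HL minus NC above H minus NC within each role, with black ticks at the medians and the number of members in brackets. The 11 histone genes stand to the right with a median of 3.14 for H minus NC, and the dotted line marks a difference of 1.

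As a group, histone genes had the largest median difference of H from NC among the roles, 3.14. There were 11 of them, 2 for the linker histone H1, 1 for H2A, 5 for H2B and 3 for H4, and 9 lie in the cluster on chromosome 13. Their H minus NC differences ran from 1.80 to 4.47. Hist1h1c, the linker histone H1.2, had 236, 217 and 234 FPKM in HL, 267, 349 and 150 in H, and 17.1, 18.4 and 16.8 in NC. All high glucose values lay far above NC, and the HL values lay between the highest and the lowest H library. Its H minus NC difference was 3.78 and its HL minus H difference -0.07. Hist1h4i, a histone H4 gene, had 27.8, 26.5 and 24.4 FPKM in HL, 29.0, 38.6 and 13.2 in H, and 3.31, 2.67 and 2.51 in NC. Here too H replicate 2 was the highest and H replicate 3 the lowest of the H libraries. Hist1h1b, linker histone H1.5, had 8.73, 10.9 and 9.93 FPKM in HL, 8.99, 19.8 and 7.26 in H, and 0.80, 0.60 and 1.21 in NC. Hist1h2bc, an H2B gene whose transcripts are known to be polyadenylated in part, had the smallest difference of the 11, with 30.6, 31.2 and 31.9 FPKM in HL, 29.3, 37.3 and 19.3 in H, and 7.49, 8.10 and 7.99 in NC.

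Hist1h2be, shown above with its octamer, had 3.83, 3.83 and 3.21 FPKM in HL, 4.17, 6.89 and 2.43 in H, and 0.49, 0.34 and 0.32 in NC. Hist1h2bg had 6.58, 5.25 and 6.90 FPKM in HL, 6.53, 7.45 and 4.32 in H, and 1.09, 0.67 and 1.24 in NC. Both followed the order of the H libraries seen for Hist1h1c. Hist3h2a, the H2A gene, was at 9.73 to 11.4 FPKM in HL, 7.18 to 12.1 in H and 1.87 to 2.07 in NC. Hist1h4n was at 14.2 to 18.7 FPKM in HL, 17.3 to 21.1 in H and 1.13 to 4.08 in NC. For 3 histone genes an NC library was listed at 0, so their differences depend on the pseudocount: Hist1h2br at 3.58 to 4.797 FPKM in HL, 3.73 to 5.83 in H and at most 0.20 in NC, Hist2h2bb at 1.76 to 2.63 in HL, 1.59 to 3.99 in H and at most 0.36 in NC, and Hist1h4k at 4.79 to 15.9 in HL, 5.34 to 10.9 in H and at most 3.56 in NC. No other member was listed at 0 in an NC library.

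The 11 histone genes summed to 360, 335 and 349 FPKM in HL, 390, 507 and 234 in H, and 35.2, 38.0 and 36.7 in NC. The H sums spanned the HL sums on both sides. H replicate 2 was the highest H library in 8 of the 11 and H replicate 3 the lowest in 8, and the median SD of log2 values was 0.16 in HL and 0.57 in H. The median HL minus H difference of the group was -0.05 with all libraries, 0.22 without H replicate 2, when 7 of the 11 stayed within 0.3, and -0.20 without H replicate 3, when 6 did. HL and H were thus close in this group on the mean of 3 H libraries that differed widely. Of 45 tested replication-dependent histone genes, a list made by symbol after the values were seen, 27 were called higher and 3 lower in H than in NC (10.3% and 5.75% of all tested genes), 27 higher and 2 lower in HL than in NC (6.3% and 2.41%), and 1 higher and 1 lower in HL than in H (3.55% and 5.83%). The 11 members are among the 27 in both comparisons by choice, and of the 34 other genes 16 were called higher and 3 lower in H than in NC, and 16 higher and 2 lower in HL than in NC. Of 52 tested DNA replication and S phase genes, 0 were called higher and 41 lower in H than in NC, and 10 were called higher and 0 lower in HL than in H, with no member among them. Histone genes of a family are close to identical in their coding sequences, so reads may be split between copies and the value of a single gene is uncertain.

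**Figure D3:**
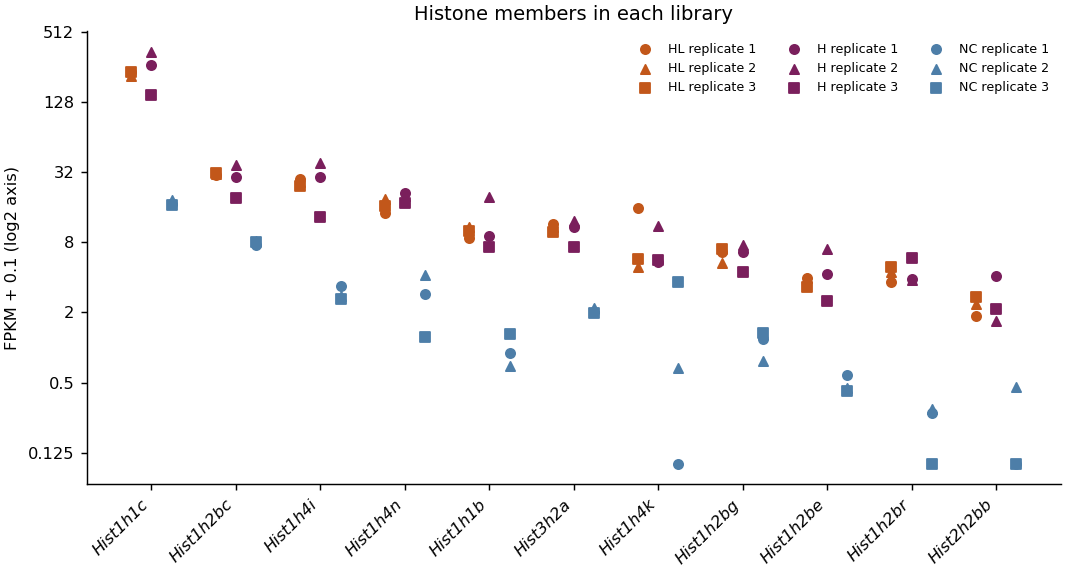
FPKM + 0.1 on a log2 axis for the 11 histone members, HL, H and NC from left to right for each gene and a marker shape for each replicate. All HL and H points lie above the NC points, and the H triangles (replicate 2) lie above the H squares (replicate 3) in most genes.

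Genes of cell cycle arrest and cell death numbered 5. Cdkn1a, the cyclin-dependent kinase inhibitor p21, had 294, 302 and 290 FPKM in HL, 324, 288 and 299 in H, and 130.7, 128.1 and 127.4 in NC. Both high glucose groups were at more than double the NC level, with H minus NC at 1.24 and HL minus H at -0.04. Plk2, a stress-induced polo-like kinase, had 178, 173 and 177 FPKM in HL, 178, 168 and 160 in H, and 51.6, 54.2 and 54.8 in NC. Plk3, its relative, had 32.2, 31.7 and 32.5 FPKM in HL, 38.3, 23.7 and 33.0 in H, and 13.1, 13.5 and 13.2 in NC. The HL values of both kinases lay within the range of the H values and far from NC. Trp53inp1, a p53-induced nuclear protein that takes part in cell death and autophagy, had 37.3, 35.9 and 35.2 FPKM in HL, 29.7, 42.0 and 27.7 in H, and 8.76, 8.71 and 9.39 in NC. Bcl2l11, the death-promoting BCL2 family member BIM, had 27.4, 31.2 and 26.2 FPKM in HL, 26.2, 24.9 and 22.8 in H, and 7.44, 7.42 and 7.12 in NC. It was the only 1 of these 5 in which all HL values lay above all H values. The median SD of log2 values in this group was 0.03 in HL and 0.10 in H, while Plk3 (0.35) and Trp53inp1 (0.32) varied more in H than the median member. Without H replicate 2, HL minus H was 0.33 in Trp53inp1, past the bound of 0.3, and the other 4 stayed within it.

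Of 33 tested p53 targets, 8 were called higher and 0 lower in H than in NC, and 9 higher and 0 lower in HL than in NC. No gene of this list was called in either direction in HL against H (limma, adjusted p under 0.05 and log2 fold change over 1), where 9.38% of all tested genes were called. Cdkn1a, Plk2, Plk3 and Trp53inp1 were members, which could not be called there by the way they were chosen. Of the 29 other genes of the list, 4 were called higher in H than in NC, 5 higher in HL than in NC and 0 in HL against H. Among the other called genes of the list, Bbc3, the death-promoting PUMA, had a mean of 11.1 FPKM in HL, 14.7 in H and 3.61 in NC, Eda2r, a death receptor, had 23.4, 31.3 and 9.63, and Btg2, an antiproliferative gene, had 63.0, 38.0 and 12.1, in the same order of groups. In HL against H, the log2 fold changes of Bbc3, Eda2r and Btg2 were -0.37, -0.42 and 0.73. Their limma adjusted p values were 0.14, 5.4e-04 and 1.3e-05, so Eda2r and Btg2 missed the call by the fold change threshold alone. The median log2 fold change over the list was 0.29 for H against NC and 0.01 for HL against H, beside -0.04 and 0.04 over all tested genes.

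**Figure D4:**
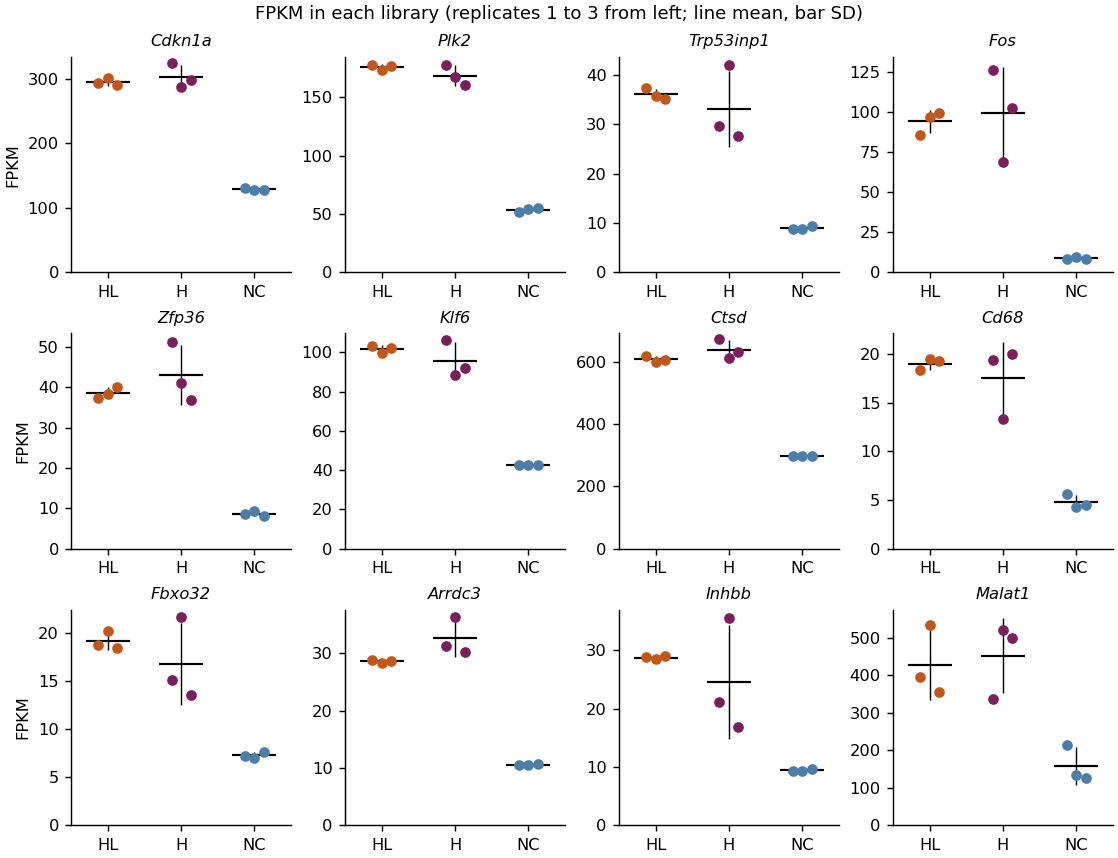
FPKM in each library of 12 members, with HL, H and NC from left to right, replicates 1 to 3 from left within a group, a line at the mean and a bar of 1 SD. Every HL and H point lies above every NC point, and the H points spread more than the HL points in most panels.

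Transcription and RNA-binding regulators numbered 12, with immediate early genes at the top. Fos, a subunit of AP-1, had 85.6, 96.9 and 99.3 FPKM in HL, 126, 68.5 and 102 in H, and 8.39, 9.41 and 8.10 in NC. The HL values lay inside the H range and about as far above NC, with H minus NC at 3.46 and HL minus H at -0.04. Zfp36, the mRNA-destabilizing protein tristetraprolin, had 37.4, 38.4 and 40.1 FPKM in HL, 51.2, 41.0 and 36.9 in H, and 8.69, 9.28 and 8.06 in NC. Klf6, a zinc finger factor, had 103, 99.7 and 102 FPKM in HL, 106, 88.5 and 92.2 in H, and 42.4, 42.6 and 42.4 in NC. Its NC values were nearly the same in all 3 libraries and its HL values lay within the H range. Klf11, a glucose-responsive factor of the same family, was at 11.0 to 12.2 FPKM in HL, 10.2 to 13.1 in H and 4.60 to 4.95 in NC. Bhlhe40, a repressor within the circadian clock, had 72.8, 66.4 and 70.3 FPKM in HL, 79.5, 91.7 and 62.4 in H, and 29.0, 27.4 and 27.0 in NC. Its relative Bhlhe41 was at 9.47 to 11.3 FPKM in HL, 8.74 to 11.5 in H and 4.07 to 5.15 in NC.

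The remaining regulators were lower in level or closer to the thresholds. Hlf, a PAR bZIP factor of clock output, was at 5.09 to 5.93 FPKM in HL, 5.60 to 8.59 in H and 2.59 to 3.16 in NC. Maf, a bZIP factor, was at 3.09 to 3.36 FPKM in HL, 2.70 to 4.42 in H and 0.96 to 1.02 in NC. Jarid2, a cofactor of the Polycomb complex, was the only regulator whose HL values (5.57 to 5.74 FPKM) lay all below its H values (6.14 to 6.74), and its NC values were 2.42 to 3.08. Zfp703, a zinc finger cofactor, had H minus NC at 1.04 and HL minus H at -0.21, and Nrip1, the nuclear receptor corepressor RIP140, had 1.03 and -0.10. Zfp563, a zinc finger gene, had 1.15 and -0.25.

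Among the 39 tested immediate early genes, 19 were called higher and 1 lower in H than in NC (10.3% and 5.75% of all tested genes), 13 higher and 2 lower in HL than in NC, and 0 higher and 5 lower in HL than in H (3.55% and 5.83%). Fos, Zfp36, Klf6 and Trib1 were members. Of the 35 other genes, 15 were called higher in H than in NC and 9 higher in HL than in NC. Fosb, the AP-1 subunit closest to Fos, had 21.2, 20.1 and 22.03 FPKM in HL, 93.2, 56.0 and 71.3 in H, and 3.62, 3.26 and 3.13 in NC. Its HL values lay well below all H values and above all NC values (HL against H log2 fold change -1.77, standard error 0.16, limma adjusted p = 3.2e-05). Klf4, a relative of Klf6, had a mean of 19.4 FPKM in HL, 50.6 in H and 8.18 in NC (HL against H log2 fold change -1.36). Klf2 had 15.6, 26.5 and 3.23 FPKM in the same order. Its log2 fold change of HL against H was -0.73 (limma adjusted p = 0.011), which missed the call by the fold change threshold alone. The difference between Fos and Fosb in this respect was not tested as such.

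**Figure D5:**
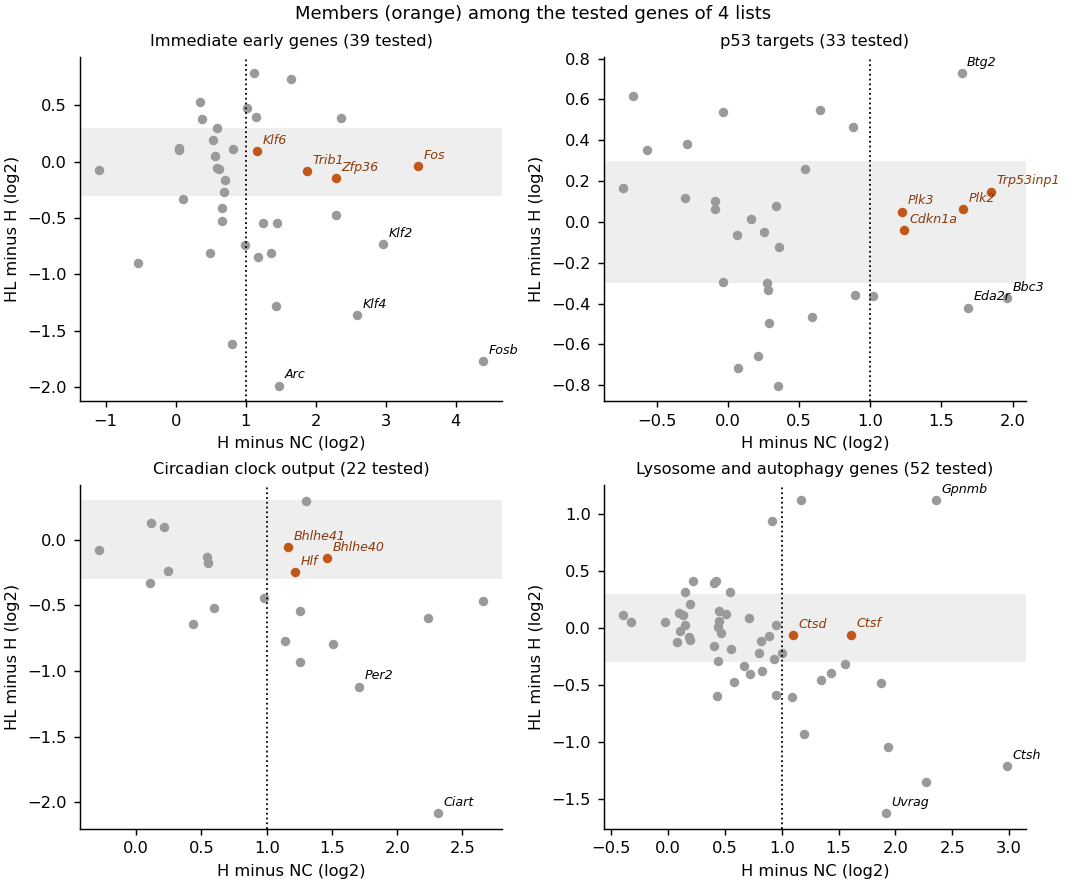
Difference of HL from H against the difference of H from NC (log2, limma) for the tested genes of 4 lists, with members in orange, the grey band at 0.3 around no difference between HL and H, and the dotted line at 1. Members stand in the band to the right of the line, while Fosb, Ciart and Uvrag stand below it.

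Of 22 tested clock genes, 12 were called higher and 0 lower in H than in NC, 5 higher and 0 lower in HL than in NC, and 0 higher and 2 lower in HL than in H. Bhlhe40, Bhlhe41 and Hlf were members. Of the 19 other clock genes, 9 were called higher in H than in NC and 3 higher in HL than in NC. Ciart, a repressor of CLOCK and BMAL1, had a mean of 3.28 FPKM in HL, 14.5 in H and 2.80 in NC. Of 12 tested Kruppel-like factors, 6 were called higher in H than in NC, 5 in HL than in NC, and 1, Klf4, was called lower in HL than in H. Klf6 and Klf11 were members, and of the 10 other factors 4 were called higher in H than in NC and 3 higher in HL than in NC.

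Ubiquitin ligases and arrestins included Fbxo32, the muscle atrophy ligase atrogin-1 (MAFbx). Fbxo32 had 18.8, 20.2 and 18.5 FPKM in HL, 15.2, 21.7 and 13.6 in H, and 7.20, 7.001 and 7.62 in NC. HL lay between the highest and the lower H values, with H minus NC at 1.17, HL minus H at 0.21 and HL minus NC at 1.39. Without H replicate 2 the HL minus H difference was 0.41, past the bound of 0.3. Fbxo32 shares exonic sequence with the gene model Gm15943, and the strandedness of the libraries is not given in the sources used here. Trim54, the muscle RING finger protein MuRF3, had 4.89, 5.38 and 5.18 FPKM in HL, 4.91, 3.49 and 5.82 in H, and 1.43, 1.12 and 1.22 in NC. Arrdc3, an arrestin-domain adaptor of receptor degradation, had 28.9, 28.3 and 28.7 FPKM in HL, 31.3, 36.3 and 30.2 in H, and 10.5, 10.5 and 10.6 in NC. Its HL values were all below its H values by a small margin, with HL minus H at -0.18. Arrdc2 was at 8.06 to 9.01 FPKM in HL, 8.23 to 9.90 in H and 2.87 to 5.14 in NC. Otud1, a deubiquitinase, was at 11.6 to 12.5 FPKM in HL, 13.04 to 14.96 in H and 6.39 to 6.63 in NC. Of 27 tested FOXO and starvation targets, 6 were called higher in H than in NC, 7 higher in HL than in NC and 1 lower in HL than in H, which was Pdk4, the kinase that inhibits pyruvate dehydrogenase (mean 9.47 FPKM in HL, 24.3 in H, 3.65 in NC). Fbxo32 and Arrdc3 were members, and of the 25 other genes 4 were called higher in H than in NC and 5 higher in HL than in NC.

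Lysosomal and autophagy genes included the member at the highest level. Ctsd, the aspartic protease cathepsin D, had 620, 601 and 608 FPKM in HL, 673, 612 and 631 in H, and 297, 298 and 298 in NC. Its levels were tight within each group, with H minus NC at 1.10 and HL minus H at -0.07. Ctsf, cathepsin F, was at 6.88 to 9.81 FPKM in HL, 7.52 to 9.77 in H and 2.56 to 3.23 in NC. Tecpr1, a tethering factor for autophagosomes and lysosomes, had 20.95, 18.9 and 20.99 FPKM in HL, 25.8, 18 and 22.1 in H, and 6.85, 6.71 and 6.17 in NC. Calcoco1, a selective autophagy receptor, was at 45.8 to 49.3 FPKM in HL, 41.3 to 43.5 in H and 20.6 to 21.5 in NC, with all HL above all H values. Hyal1, a lysosomal hyaluronidase, and Plekhm3 had all HL values below all H values, with HL minus H at -0.18 and -0.25. Gm2a, the GM2 ganglioside activator, had 1.03 for H minus NC and -0.29 for HL minus H. Of 52 tested genes of the lysosome and autophagy, 14 were called higher and 0 lower in H than in NC, 9 higher and 0 lower in HL than in NC, and 2 higher and 4 lower in HL than in H. The median log2 fold change of H against NC over this list was 0.63, beside -0.04 over all tested genes. Ctsd and Ctsf were members, and of the 50 other genes 12 were called higher in H than in NC and 7 higher in HL than in NC. Ctsh, cathepsin H, had a mean of 23.8 FPKM in HL, 55.1 in H and 6.95 in NC, and Gpnmb, a glycoprotein of lysosomes and melanosomes, had 90.8, 42.9 and 8.09.

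Cd68, a lysosomal glycoprotein used as a macrophage marker, had 18.3, 19.5 and 19.3 FPKM in HL, 19.4, 13.3 and 20.0 in H, and 5.58, 4.31 and 4.44 in NC. Its HL values lay within the H range. Of the 16 macrophage markers 3 were tested, the list summed to 50.1 to 52.7 FPKM in HL, 171 to 248 in H and 33.4 to 34.8 in NC, and C1qa, C1qb, C1qc and Tyrobp were at 0 in all libraries. Most of the sum in H was Csf1r, the receptor of colony-stimulating factor 1, at 0.25 to 0.28 FPKM in HL, 91.5 to 149 in H and 0.31 to 0.69 in NC. Ptprc, the pan-leukocyte CD45, averaged 0.0072 FPKM in HL, 0.0068 in H and 0.011 in NC. The part of other cells in the level of Cd68 was not tested.

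Genes of lipid handling numbered 12. Enpp2, the lysophosphatidic acid producer autotaxin, had 5.69, 6.78 and 6.53 FPKM in HL, 7.05, 8.52 and 6.32 in H, and 0.67, 0.67 and 0.77 in NC. It had the largest H minus NC difference of the group, 3.20, and HL minus H was -0.19. Fabp3, the fatty acid binding protein of heart and muscle, had 4.23, 4.03 and 4.97 FPKM in HL, 4.12, 3.76 and 4.05 in H, and 0.34, 0.43 and 1.03 in NC. Its HL and H values lay close together at several times the NC level. Pnpla2, adipose triglyceride lipase, was at 26.2 to 29.1 FPKM in HL, 24.6 to 33.9 in H and 13.2 to 14.3 in NC. Chka, choline kinase alpha, and Hsd3b7, an enzyme of bile acid synthesis, had all HL below all H values, with HL minus H at -0.24 and -0.25. Apod, apolipoprotein D, was at 3.48 to 5.97 FPKM in HL, 3.55 to 5.71 in H and 0.90 to 1.24 in NC. Ptges, prostaglandin E synthase, was at 3.995 to 5.59 FPKM in HL, 3.60 to 5.02 in H and 1.13 to 1.48 in NC. Pla2g7 and Pla2g2e, secreted phospholipases A2, had H minus NC at 1.55 and 1.18. Abca1, the cholesterol exporter, was at 4.97 to 6.10 FPKM in HL, 3.50 to 6.56 in H and 1.89 to 2.43 in NC. Its HL minus H difference was 0.28 with all libraries and 0.55 without H replicate 2, past the bound of 0.3. Abcg1, another exporter, had a mean of 2.05 FPKM in HL, 9.10 in H and 1.55 in NC. Of 40 tested genes of cholesterol and fatty acid synthesis, 3 were called higher and 2 lower in H than in NC, 1 higher and 0 lower in HL than in NC, and 1 higher and 1 lower in HL than in H, with Abca1 as the only member. Apobr, a receptor for apolipoprotein B, and Cyp4f17, a cytochrome P450, had H minus NC at 1.44 and 1.07.

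Ligands, receptors and signaling proteins numbered 15. Inhbb, the beta B subunit of activin and inhibin, had 28.8, 28.5 and 29.0 FPKM in HL, 21.2, 35.6 and 16.9 in H, and 9.33, 9.32 and 9.57 in NC. HL was even across its libraries and fell inside a wide H range, and the HL minus H difference of 0.30 was at the edge of the rule. Without H replicate 2 it was 0.60. Chrd, the BMP antagonist chordin, was at 1.43 to 2.13 FPKM in HL, 1.29 to 3.05 in H and 0.76 to 0.98 in NC. Gas6, the ligand of TAM receptors, was at 2.73 to 3.48 FPKM in HL, 2.36 to 3.84 in H and 0.83 to 1.33 in NC. Olfm1, a secreted olfactomedin, was at 42.9 to 44.4 FPKM in HL, 38.7 to 46.9 in H and 18.6 to 19.8 in NC. Ntng2, a netrin G, had H minus NC at 1.56.

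Among the receptors, Cxcr4, the receptor of the chemokine CXCL12, had 9.47, 8.70 and 10.1 FPKM in HL, 8.43, 8.39 and 9.05 in H, and 2.41, 3.47 and 2.60 in NC. Lifr, the leukemia inhibitory factor receptor, was at 11.1 to 13.02 FPKM in HL, 12.1 to 15.9 in H and 5.72 to 7.05 in NC. Lilr4b, an inhibitory immune receptor, was at 1.95 to 2.59 FPKM in HL, 1.70 to 3.54 in H and 0.36 to 0.70 in NC. Trib1, a pseudokinase that directs proteins to ubiquitin ligation, had 33.5, 32.6 and 32.9 FPKM in HL, 41.8, 30.7 and 33.2 in H, and 9.77, 9.26 and 9.20 in NC. Socs1, an inhibitor of cytokine signaling, Rps6ka1, the kinase RSK1, Blnk, a B cell linker, Rhov, a small GTPase, and Arhgap26, a GTPase-activating protein, had H minus NC differences of 1.11, 1.51, 1.31, 1.43 and 1.81. Of 40 tested BMP, TGF-beta and ID genes, 4 were called higher and 2 lower in H than in NC, and 0 higher and 3 lower in HL than in H. Inhbb and Chrd were members, and of the 38 other genes 2 were called higher and 2 lower in H than in NC.

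Membrane and transport proteins numbered 9. Grina, a member of the family of BAX inhibitor proteins, had 236, 240 and 246 FPKM in HL, 213, 191 and 205 in H, and 95.6, 95.9 and 95.2 in NC. All HL values lay above all H values, as they did for Cystm1, a small cysteine-rich membrane protein, at 45.8 to 48.5 FPKM in HL, 33.4 to 44.8 in H and 17.4 to 18.9 in NC. The HL minus H differences were 0.25 and 0.21. Ifitm1, an interferon-induced membrane protein, was at 31.5 to 34.1 FPKM in HL, 33.9 to 46.9 in H and 13.4 to 17.2 in NC, and Ifitm6 had H minus NC at 1.57. Of 36 tested interferon response genes, 3 were called higher and 8 lower in H than in NC, 1 higher and 8 lower in HL than in NC, and 0 in either direction in HL against H. Clcn2, a chloride channel, had H minus NC at 1.02 and was the only member among 32 tested channel genes, of which 5 were called higher in H than in NC. Vamp1, a vesicle SNARE, Rab11fip1, a recycling endosome effector, Nipal3, a magnesium transporter-like protein, and Rhd, a blood group antigen gene, had H minus NC at 1.06, 1.01, 1.78 and 2.12.

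Glutathione transferases and other metabolic genes numbered 12. Gstt3, a theta class glutathione transferase, had 9.91, 9.49 and 10.6 FPKM in HL, 9.35, 8.58 and 8.51 in H, and 2.56, 2.94 and 3.45 in NC. All its HL values lay above all its H values by a small margin. Gstt2 was at 2.95 to 4.28 FPKM in HL, 3.73 to 4.87 in H and 1.70 to 1.75 in NC, and Gstm7, of the mu class, at 2.28 to 2.49 in HL, 1.59 to 2.89 in H and 0.43 to 0.77 in NC. Of 16 tested glutathione transferase genes, 4 were called higher in H than in NC (10.3% of all tested genes). In HL, 3 were called higher than in NC (6.3%) and 2 lower than in H (5.83%). The list was made by symbol after the values were seen. Gstt3, Gstt2 and Gstm7 were members. Of the 13 other genes, 1 was called higher in H than in NC and 1 higher in HL than in NC. Renbp, an enzyme of sialic acid precursor metabolism, had 83.2, 82.0 and 81.7 FPKM in HL, 102, 80.2 and 82.8 in H, and 31.3, 31.1 and 32.1 in NC. Gnpda1, which converts glucosamine 6-phosphate to fructose 6-phosphate, was at 18.8 to 27.5 FPKM in HL, 21.95 to 26.3 in H and 9.55 to 15.6 in NC, and stood at the edge of the rule. Tcn2, the transport protein of vitamin B12, was at 34.6 to 38.5 FPKM in HL, 36.9 to 39.8 in H and 11.8 to 13.2 in NC. Uox, urate oxidase, Ogdhl, an oxoglutarate dehydrogenase-like protein, Qpct, glutaminyl cyclase, Slc25a23, a mitochondrial carrier, Cyb561d1 and the imprinted Nnat had H minus NC differences of 1.70, 1.40, 1.53, 1.46, 1.04 and 1.44.

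Matrix, adhesion and cytoskeletal genes numbered 9 and included markers of epithelia. Msln, the mesothelial surface protein mesothelin, had 111, 95.9 and 110 FPKM in HL, 124, 126 and 132 in H, and 35.1, 36.7 and 39.2 in NC. Its HL values were all below its H values, with HL minus H at -0.27. Krt19, a keratin of simple epithelia, had 6.91, 4.94 and 4.66 FPKM in HL, 5.07, 4.35 and 5.999 in H, and 1.27, 0.80 and 0.99 in NC. The 8 epithelial markers, 2 of them tested, summed to 5.91 to 8.43 FPKM in HL, 6.99 to 9.88 in H and 2.60 to 3.01 in NC, and Epcam and Cdh1 averaged under 0.1 FPKM in all 3 groups. Krt14, the other tested marker, had a mean of 0.675 FPKM in HL, 2.03 in H and 1.47 in NC and was called lower in HL than in H (log2 fold change -1.45) and than in NC (-1.05). Krt13, a keratin of stratified epithelia, was at 13.9 to 15.8 FPKM in HL, 15.1 to 19.9 in H and 4.46 to 6.003 in NC. Tnni1, slow skeletal troponin I, had 7.07, 8.02 and 6.56 FPKM in HL, 3.56, 6.09 and 9.31 in H, and 2.51, 2.98 and 2.80 in NC, so the HL values lay within an H range that itself varied widely. Its HL minus H difference was 0.29 with all libraries, 0.61 without H replicate 3, 0.31 without H replicate 2 and -0.07 without H replicate 1. Of 25 tested sarcomere and differentiated muscle genes, 2 were called higher and 1 lower in H than in NC, 12 higher and 0 lower in HL than in H, and 10 higher and 0 lower in HL than in NC, with Tnni1 as the only member. Pkp3, a desmosomal plakophilin, Eps8l2, an actin regulator, Htra3, a secreted serine protease, Col27a1, a fibrillar collagen, and Kifc2, a kinesin, had H minus NC at 1.45, 1.98, 1.33, 1.66 and 1.58.

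The non-coding and unnamed genes, 23 in all, were led by Malat1, a nuclear-retained long non-coding RNA. Malat1 had 396, 535 and 354 FPKM in HL, 337, 521 and 498 in H, and 214.8, 132.5 and 124.9 in NC. The H and HL values overlapped widely and NC replicate 1 was the highest of the controls. Gm37376, which overlaps Malat1 on the opposite strand, had 133, 191 and 127 FPKM in HL, 127, 214 and 183 in H, and 103, 51.2 and 46.3 in NC. It followed the same order of libraries, and the reads of the pair cannot be told apart without strand. Of 17 tested nuclear-retained and regulatory lncRNAs, 4 were called higher and 1 lower in H than in NC, and 0 in either direction in HL against H. Neat1, another nuclear-retained RNA, had a mean of 252 FPKM in HL, 486 in H and 44.0 in NC and was no member. The locus 2010111I01Rik, whose model overlaps Mir27b and Mir24-1, was at 92.5 to 97.8 FPKM in HL, 96.4 to 125.3 in H and 48.6 to 49.97 in NC. Gm49369 shares exonic sequence with Ctsd and Ifitm10 on the same strand, so its level and that of Ctsd may not be separate. Gm20521 overlaps Bcl2l2 and Pabpn1, and E130102H24Rik overlaps Mir101a.

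The other unnamed models were Gm32618, 4930447F24Rik, 2900076A07Rik, Ccpg1os, Gm4876, Gm43970, 1810021B22Rik, 4933439C10Rik, Gm12606, Gm17971, 9830144P21Rik, Tmem147os, Gm867, Gm20632, Ywhaq-ps3, Gm19391 and 2310001H17Rik, with H minus NC differences of 1.08 to 2.58. The largest of these was Gm4876, at 5.06 to 5.77 FPKM in HL, 3.26 to 6.05 in H and 0.45 to 1.70 in NC. By annotation, 118 members were protein coding (86.76%, against 86.93% of tested genes), 16 non-coding or unclassified and 2 pseudogenes. In all, 56 members shared exonic sequence with another gene model, 43 of them on the opposite strand and 21 on the same strand, and their values are uncertain to that extent.

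Further members outside these classes numbered 15. Tcim, a small regulator of Wnt signaling and inflammation, had 74.2, 69.5 and 70.0 FPKM in HL, 76.5, 73.9 and 59.9 in H, and 10.8, 11.2 and 10.6 in NC. It stood well apart from NC in every library, with H minus NC at 2.67 and HL minus H at 0.03. Ndrg1, a hypoxia- and stress-responsive gene, had 143, 145 and 123 FPKM in HL, 149, 143 and 108 in H, and 51.6, 51.6 and 48.6 in NC. Ndrg4, of the same family, was at 48.1 to 50.5 FPKM in HL, 43.5 to 65.3 in H and 16.6 to 17.3 in NC. Of 41 tested genes of glycolysis and hypoxia, 5 were called higher in H than in NC and 2 lower in HL than in H, with Ndrg1 as the only member. Mettl27, a methyltransferase-like protein, was at 16.2 to 17.7 FPKM in HL, 14.2 to 17.7 in H and 4.54 to 4.94 in NC. Arl4d, an ARF-like GTPase shown above for its cAMP response element, was at 7.11 to 7.33 FPKM in HL, 5.86 to 8.66 in H and 2.81 to 3.46 in NC. Hap1, Oit3, Izumo4, Tmem229b, Ccdc114, C8g, Plekhn1, Tgfbr3l, Tagap1 and Enkur had H minus NC differences of 1.04 to 1.94.

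Near the thresholds of the rule, levels were continuous with those of genes outside it. The members with the lowest mean in H were Ywhaq-ps3 (2.02 FPKM), Chrd (2.04) and Enkur (2.07), and just outside stood Hist1h1a (1.90), Gm11613 (1.89) and 1700007K13Rik (1.86). The smallest H minus NC differences were those of Gnpda1, Calcoco1 and Rab11fip1 at 1.01, and just outside stood Ctsb, cathepsin B, Hes6, a Notch pathway factor, and Tmem151a at 0.9985, 0.9968 and 0.9937. The HL minus H differences closest to the bound were -0.30 in Tagap1, 0.30 in Inhbb and -0.29 in Gm2a, and just outside stood Gm43366 at 0.30, Gm45819 at -0.31 and F7, coagulation factor VII, at 0.31. A further 18 genes met every other condition but had an H or HL value that overlapped NC.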

How the data were processed

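Libraries of mRNA from C2C12 cells (3 each of HL, H and NC) were sequenced on an Illumina HiSeq instrument. The authors deposited 1 FPKM value per gene and library. Per the methods and the submitters' processing notes, reads were trimmed with fastp, aligned with HISAT2 (2.1.0) and quantified with StringTie (1.3.3b), and groups were compared with DESeq2. The methods name a human reference genome, whereas the processing notes name the mouse build mm39. The deposited values carry the label of another quantifier, salmon, so which one made them is not settled. The gene identifiers belong to mouse Ensembl. Coordinates are printed for RefSeq promoters alone. Of 54307 genes, 51482 matched a symbol.

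The deposited FPKM are scaled to length and mapped reads and are not counts, so depth is known only as a rough estimate from low values and no count test was run. Values were transformed to log2(FPKM + 0.1) and fitted with limma (3.58.1, statmod 1.5.0, R 4.3.3; trend and robust options) over all 9 libraries. The 13674 genes with at least 1 FPKM in at least 3 libraries were tested, with Benjamini-Hochberg adjustment, and a call needed both an adjusted p below 0.05 and a change of more than 1 in log2. Standard errors are those of this fit. The fit was tested on simulated data. Python 3.11.15 with pandas 2.3.3 and matplotlib 3.10.9 was used for tables and plots.

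The members, the gene lists and the tests were chosen with earlier results of these data known. Named genes are members with the highest levels or the largest differences, members in a list or placed by hand in a role, genes next to a threshold, and up to 3 called genes of a list. Of 23 gene lists, 13 held a member, and these and the replication list are described, beside marker lists and the 2 lists made by symbol after the values were seen. Promoters were matched by symbol or by a synonym (11 members). Alternatives were another pseudocount, another or no filter, rescaling to TPM, centring on the median, limma without the robust option, a replicate block, an adjusted p alone, other thresholds of the rule and leaving out each library in turn. Values of 1 member and of 1 other list gene are not reported here.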

Additional observations from a re-analysis of the deposited data

How the results depend on the processing

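Rescaling to TPM gave 236 members, 109 of the 136 among them, and moved the median difference of H from NC among tested genes to 0.17, against -0.04 in FPKM. It gave 2102 genes higher and 573 lower in H than in NC, against 1402 and 786, and 412 higher and 1120 lower in HL than in H, against 486 and 797. A bound of 0.5 on HL minus H gave 246 members, an H minus NC threshold of 1.5 gave 62 and a minimum of 5 FPKM gave 82, as these settings widen or narrow the rule. With a pseudocount of 1 there were 106 members, 95 of them shared. Leaving out 1 library gave 132 to 147 members, of which 97 (without H replicate 2) to 131 (without NC replicate 2) were shared with the 136.

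With an adjusted p alone, 3711 genes were called higher in H than in NC, 3652 higher and 2967 lower in HL than in H and 2957 higher in HL than in NC, and list calls rose to 807 in sum, against 228. With no filter, 2711 were called higher in H than in NC and 1606 lower in HL than in H. With a filter on a mean of 5 FPKM, the counts were 517, 255, 270 and 306 in the order of the adjusted p sentence, since fewer genes were tested. A pseudocount of 1 gave 256 higher in HL than in H and 446 higher in HL than in NC. Leaving out 1 library gave 1013 to 1409 higher in H than in NC, 391 to 563 higher and 444 to 801 lower in HL than in H, and 765 to 854 higher in HL than in NC. The count lower in HL than in H was 444 without H replicate 1 and 520 without H replicate 3.

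Same-numbered samples had correlations of -0.037 to 0.091 in their deviations from the group means. The labels do not say whether equal numbers mean a shared culture or batch, and this was not tested. The main fit did not pair the samples. A fit with the replicate block gave 1402 higher in H than in NC, 486 higher and 802 lower in HL than in H and 848 higher in HL than in NC. The values hold no read counts, and the reads behind a low FPKM are known only as a rough estimate, under 10 in NC for 5 members.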
